A study of Mus musculus with 10 samples.

Results

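Regulators and early matrix genes of cartilage, bone and joint, 10 in all, were followed in the mandibular prominence, the embryonic outgrowth that forms the lower jaw. The 10 genes were chosen by name (Sox9, Sox5, Sox6, Acan, Nkx3-2, Gdf5, Runx2, Runx3, Sp7 and Maf) from the 33641 gene symbols listed, of which 23652 had at least 1 estimated count. All 10 passed the filter on low counts and were tested among 17477 genes. The tissue came from CD1 mouse embryos at embryonic day 10.5 and was measured by bulk RNA sequencing of polyA RNA. The libraries analysed were 2 wild-type libraries (WT 3 and WT 4), 3 Hand2f/f;Wnt1-Cre libraries (Hand2 cKO 1, 2 and 3) and 1 Gli2f/f;Gli3f/f;Wnt1-Cre library (Gli2/3 cKO 3). Wnt1-Cre deletes the floxed alleles in neural crest cells and their descendants, so epithelium, vessels, blood and muscle precursors of the prominence keep theirs. The other 4 labelled samples were not analysed here, and whether a library came from 1 embryo or from a pool was not given.

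Most of the lower jaw skeleton descends from cranial neural crest. Crest-derived mesenchyme first condenses, and Sox9 then directs cartilage fate together with Sox5 and Sox6, while Runx2 and then Sp7 direct bone fate. A joint forms between cartilages of the first arch, and Nkx3-2 and Gdf5 are early markers of its region. At this embryonic day overt cartilage and bone have not yet formed, so the comparison asks how the regulators stood in each genotype before differentiation.

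The libraries held 21420197 to 53326697 estimated counts. Hand2 was at 174 and 209 CPM (counts scaled to a common library size, with TMM factors) in the WT libraries and at 13.4 to 25.4 CPM in the Hand2 cKO libraries. Gli2 and Gli3 stood at 51.3% and 50.0% of the WT mean in the Gli2/3 cKO library. Cells without Cre keep both genes, and their part in these values was not tested. All 9 markers of neural crest mesenchyme were above 1 CPM in at least 1 library, with a summed level of 1498 to 1826 CPM across the 6 libraries. Prrx1 was the highest of them in WT (mean 571 CPM). In the Gli2/3 cKO library 4 of the 9 were higher than in WT and 5 lower (median log2 difference -0.045). Among the lower was Alx1, at 5.78 CPM against a WT mean of 20.4 CPM. In Hand2 cKO 6 were higher than in WT and 3 lower (median 0.21). Their part in the values of the 10 genes was not tested. In 1 library, Hand2 cKO 2, counts fell with transcript length (slope of -0.38 on log2 scales, against 0.0035 to 0.15 in the other 5). Without that library the Hand2 cKO against WT differences of the 10 regulators, in log2, were 0.63 for Sox9, 0.32 for Sox5 and 0.34 for Sox6, -0.75 for Acan, -0.05 for Nkx3-2, 0.85 for Gdf5, 0.57 for Runx2, -0.58 for Runx3, -0.92 for Sp7 and -0.89 for Maf, and edgeR called 0 of them. The 7 erythroid markers stood at a summed 2411 CPM in WT 3, but 6987 and 7491 CPM in WT 4 and Hand2 cKO 2, and at 3046 to 3547 CPM in the other 3 libraries. Bulk RNA cannot tell fewer cells of a type from less RNA per cell.

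Divided by transcript length and scaled to a common total (TPM), Sox9 and Sox5 were the most abundant of the 10 genes in WT. Sox9, the master regulator of chondrocyte fate, had 29.7 ± 9.52 TPM (SD, n = 2) and stood at percentile 73.3 of the 22053 genes with WT counts. Sox5, which with Sox6 assists Sox9 on cartilage genes, followed at 14.5 ± 1.95 TPM. The joint gene Nkx3-2 had 8.92 ± 0.895 TPM and Sox6 7.18 ± 3.03 TPM, and their WT libraries overlapped. Maf (3.52 ± 0.661 TPM), Runx2 (3.18 ± 0.747 TPM) and Sp7 (2.99 ± 0.495 TPM) came next, and each overlapped its neighbour in that order. Gdf5 had 1.34 ± 0.683 TPM. Acan, the large cartilage proteoglycan, and Runx3 were at the bottom with 0.287 ± 0.164 and 0.189 ± 0.00909 TPM, and they overlapped too. Sox9 was above Sox5, and Sox5 above Nkx3-2, in 6 of 6 libraries, while Maf was above Runx2 in 3 of 6.

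**Figure D1:**
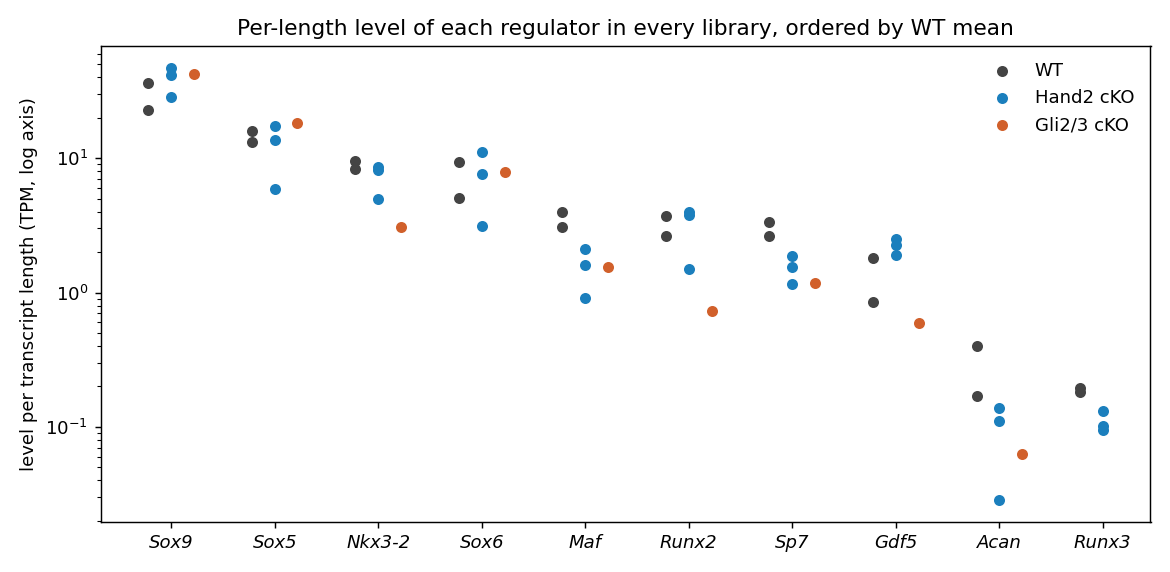
Level of the 10 genes per transcript length (TPM, log axis) in every library, one point per library, with genes ordered by WT mean. Sox9 is highest and Runx3 lowest in WT; Runx3 has no point for the Gli2/3 cKO library, where it had 0 counts.

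No regulator among the 10 was called by the main test in any comparison (edgeR quasi-likelihood; a call needed an adjusted p under 0.05 together with more than a 1.5-fold difference). Across all genes it called 0.0114% in Hand2 cKO against WT, all of them lower, 0.0114% in Gli2/3 cKO against WT, all lower, and 0.0172% higher and 0.0172% lower (0.0343% in all) between the mutants. Without adjustment, at p under 0.05 by edgeR, Hand2 cKO against WT held 2 of the 10 higher (background 2.44%) and 1 lower (4.02%, 6.47% in either direction). Gli2/3 cKO against WT held 0 higher (1.63%) and 5 lower (2.96%, 4.59% in either direction). Between the mutants 0 were higher (2.86%) and 4 lower in Gli2/3 cKO (2.63%, 5.48% in either direction). The main test also missed the deleted gene Hand2 itself in Hand2 cKO against WT (log2 -3.40, edgeR adjusted p = 0.058), so an absent call does not show an absent difference. DESeq2 called 0 of the 10 in Hand2 cKO against WT, where it called 0.221% of its tested genes higher and 0.859% lower (1.08% in all). It called 0 higher (0.123%) and 1 lower (0.668%, 0.791% in all) in Gli2/3 cKO against WT, and 0 higher (0.251%) and 2 lower (0.619%, 0.87% in all) between the mutants. The first and second comparison share the WT libraries, and the Gli2/3 cKO library has no replicate, so its spread was assumed to equal that of the other groups.

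**Figure D2:**
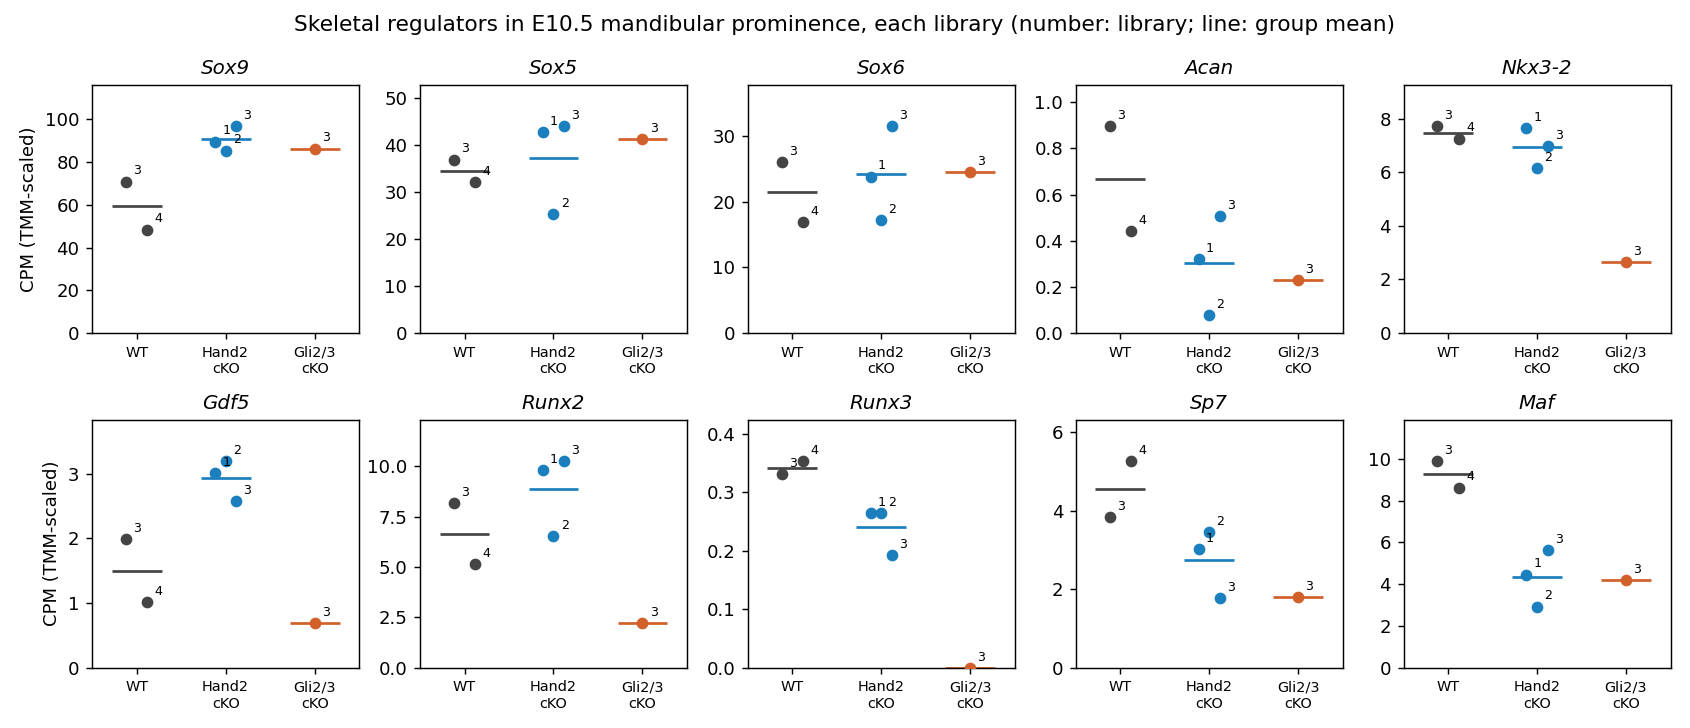
CPM of the 10 genes in each library, one panel per gene with its own axis from 0; points are libraries with their numbers and lines are group means. Runx2, Nkx3-2 and Gdf5 are lowest in the Gli2/3 cKO library, Maf is lower in both mutants, and Sox9 is higher in both.

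Among the cartilage regulators, Sox9 was at 70.8 and 48.4 CPM in WT, at 89.6, 85.4 and 96.7 CPM in Hand2 cKO 1, 2 and 3, and at 86.3 CPM in the Gli2/3 cKO library. All 4 mutant libraries lay above both WT libraries. Its level in Hand2 cKO was 1.52 times that of WT (log2 fold change 0.60 ± 0.20 SE, 95% interval 0.11 to 1.10, edgeR adjusted p = 0.723). On the TPM scale the Hand2 cKO and WT libraries of Sox9 overlapped. Sox9 is also used in neural progenitors, and the 6 markers of those cells stood at a summed 119 and 97.6 CPM in WT, at 145, 150 and 144 CPM in Hand2 cKO and at 97.2 CPM in the Gli2/3 cKO library. Nes made up most of these sums (81.5 CPM in the Gli2/3 cKO library), and 5 of the 6 markers were higher in that library than in WT (median log2 difference 1.36), among them Otx2 at 1.68 CPM against a WT mean of 0.423 CPM, and Sox1 at 0.842 CPM against 0.142 CPM. In Hand2 cKO 4 of the 6 were higher than WT (median 0.48). Their part in the Sox9 values was not tested. The Gli2/3 cKO library differed from WT by 0.53 ± 0.26 in log2 (interval -0.11 to 1.17, edgeR adjusted p = 1), and from Hand2 cKO by -0.07 ± 0.25.

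Sox5 was at 36.8 and 32.0 CPM in WT, at 42.6, 25.2 and 43.9 CPM in Hand2 cKO and at 41.2 CPM in the Gli2/3 cKO library. The low Hand2 cKO value was that of library 2, and without it the other Hand2 cKO libraries lay above both WT libraries in CPM. On the TPM scale they still overlapped WT, with Hand2 cKO 1 at 13.6 TPM and WT 3 at 15.9 TPM. Sox6 was at 26.1 and 16.9 CPM in WT, at 23.9, 17.2 and 31.5 CPM in Hand2 cKO and at 24.6 CPM in the Gli2/3 cKO library. Its groups overlapped throughout. The intervals for Hand2 cKO against WT ran from -0.53 to 0.76 for Sox5 and from -0.59 to 0.92 for Sox6 in log2, and differences within them were not excluded.

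Acan, a target of the Sox trio that fills cartilage matrix, had 46 and 10 counts in WT, 17, 3 and 21 in Hand2 cKO and 6 in the Gli2/3 cKO library. In CPM these were 0.896 and 0.442, then 0.322, 0.0792 and 0.506, then 0.230. WT and Hand2 cKO overlapped in CPM, whereas on the TPM scale all 3 Hand2 cKO libraries (0.110, 0.0286 and 0.139 TPM) lay below both WT libraries (0.403 and 0.171 TPM). The interval of the difference was -2.99 to 0.67 in log2 (edgeR adjusted p = 0.723).

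Nkx3-2, a homeobox gene read here as an early joint marker, was at 7.72 and 7.25 CPM in WT, at 7.64, 6.15 and 6.98 CPM in Hand2 cKO and at 2.64 CPM in the Gli2/3 cKO library. Lowest of the 6 was the Gli2/3 cKO library, at 35.3% of the WT mean, while Hand2 cKO overlapped WT. The log2 difference was -1.50 ± 0.29 from WT (interval -2.21 to -0.80, edgeR adjusted p = 0.534) and -1.39 ± 0.28 from Hand2 cKO (edgeR adjusted p = 0.498). DESeq2 called both differences, with adjusted p = 0.00757 and 0.00852. In Hand2 cKO against WT the log2 difference was -0.11 ± 0.20, with an interval of -0.59 to 0.37.

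Gdf5, a secreted growth factor of early joints, was at 1.99 and 1.02 CPM in WT, at 3.01, 3.19 and 2.58 CPM in Hand2 cKO and at 0.689 CPM in the Gli2/3 cKO library. Every Hand2 cKO library lay above both WT libraries, and the Gli2/3 cKO library lay below both. Hand2 cKO stood at 1.95 times WT (log2 0.94 ± 0.36, interval 0.07 to 1.81, edgeR adjusted p = 0.723), a difference of 0.56 without WT 4 and 1.52 without WT 3. The Gli2/3 cKO library differed from WT by -1.15 ± 0.53 (edgeR adjusted p = 1, -0.56 without WT 3 and -1.53 without WT 4) and from Hand2 cKO by -2.08 ± 0.52 (interval -3.35 to -0.81, edgeR adjusted p = 0.654, DESeq2 adjusted p = 0.066). Its Gli2/3 cKO value rests on 18 counts.

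**Figure D3:**
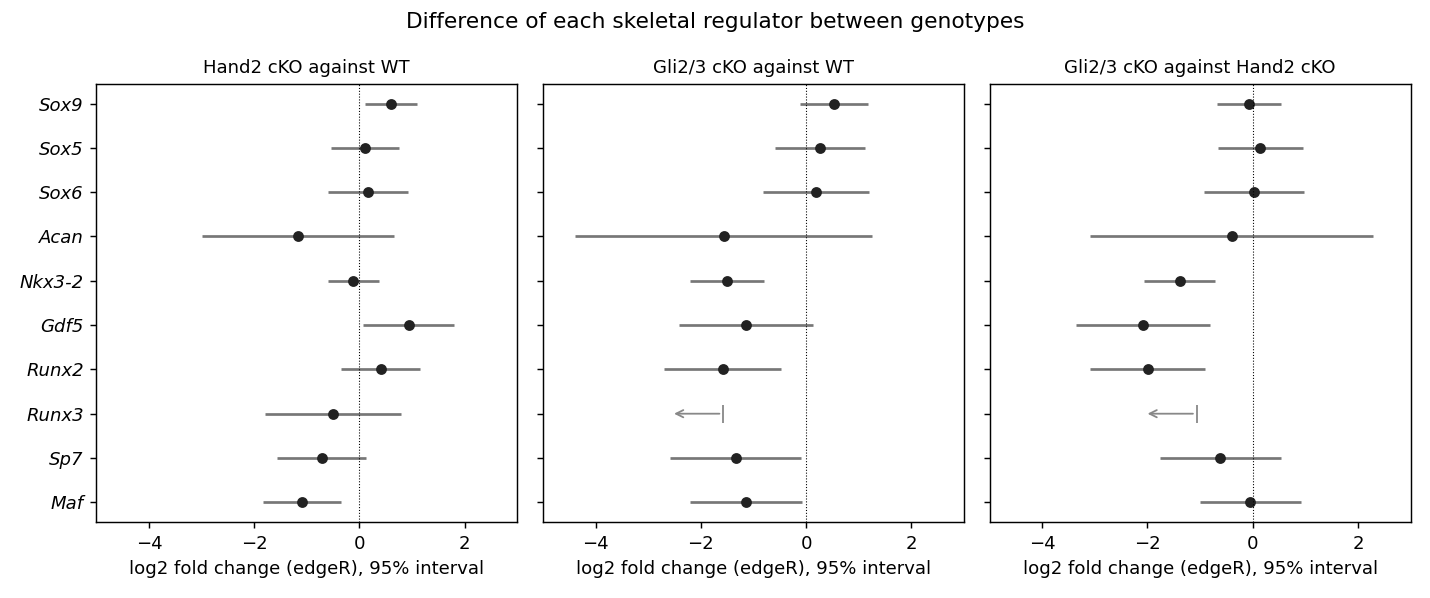
Log2 fold change of the 10 genes in the 3 comparisons (points, edgeR; lines, 95% intervals); the arrows for Runx3 start at the bound set by 3 counts in the Gli2/3 cKO library. Intervals exclude 0 for Nkx3-2 and Runx2 in both comparisons with the Gli2/3 cKO library. They also exclude 0 for Sox9, Gdf5 and Maf in Hand2 cKO against WT, for Sp7 and Maf in Gli2/3 cKO against WT, and for Gdf5 between the mutants. No difference passed the adjusted threshold.

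Among the bone regulators, Runx2, the factor that commits mesenchyme to osteoblasts, was at 8.16 and 5.13 CPM in WT, at 9.80, 6.52 and 10.3 CPM in Hand2 cKO and at 2.22 CPM in the Gli2/3 cKO library. Again the Gli2/3 cKO library was the lowest, at 33.4% of WT and 25.0% of Hand2 cKO, and WT and Hand2 cKO overlapped. Its log2 difference was -1.59 ± 0.46 from WT (interval -2.70 to -0.48, edgeR adjusted p = 0.853, DESeq2 adjusted p = 0.126). From Hand2 cKO it was -1.996 ± 0.45 (interval -3.09 to -0.90, edgeR adjusted p = 0.569), which DESeq2 called at adjusted p = 0.00404. Without Hand2 cKO 2 the other Hand2 cKO libraries of Runx2 lay above both WT libraries.

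Runx2 has a distal and a proximal transcription start, whose proteins begin with different residues. The 2 coding sequences share their first 3 bases and their last 1530 and differ in 54 and 12 bases between. The first 60 coding bases are shown because the files count the transcripts of each start separately, with capitals for the bases before the shared part (GENCODE M21 annotation of mm10, minus strand of chromosome 17).
Runx2 distal start: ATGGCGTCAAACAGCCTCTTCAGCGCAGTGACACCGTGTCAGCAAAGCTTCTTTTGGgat
Runx2 proximal start: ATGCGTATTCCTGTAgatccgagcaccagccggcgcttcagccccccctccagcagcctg

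The main proximal transcript held 87.8% of the summed Runx2 counts. Transcripts from the distal start took 0.239% and 1.52% of Runx2 counts in WT, 15.6%, 0% and 0% in Hand2 cKO 1, 2 and 3, and 42.7% in the Gli2/3 cKO library. The share was highest in the Gli2/3 cKO library, where 24.95 of 58 estimated counts were distal (exact 95% binomial interval on rounded counts 30.2% to 56.8%), and Hand2 cKO 1 stood apart from the other Hand2 cKO libraries (12.6% to 19.1%). The shares of 0% in Hand2 cKO 2 and 3 allow up to 1.48% and 0.862% by the same interval. Proximal transcripts had 33.5 estimated counts in the Gli2/3 cKO library, against 114 to 438 in the other 5. The intervals cover counting error only, and the division of reads among transcripts was the authors' estimate.

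**Figure D4:**
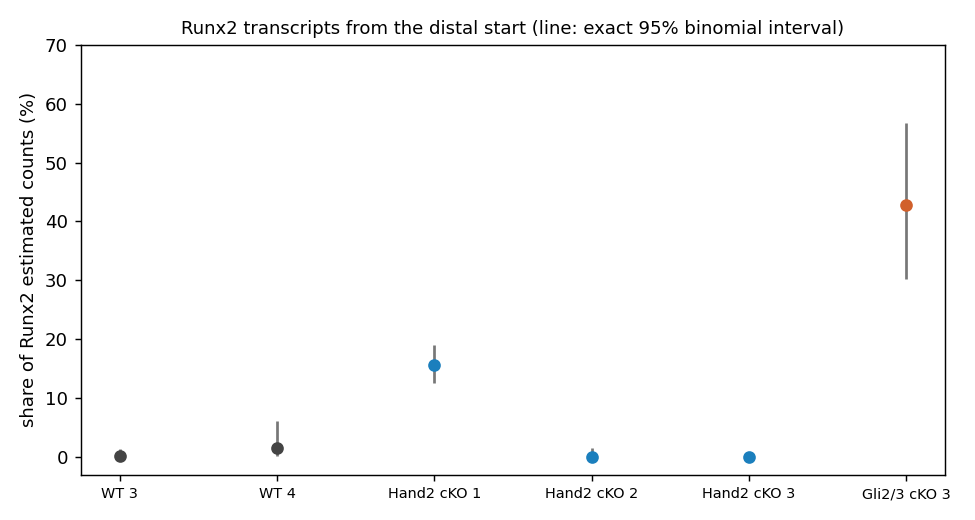
Share of Runx2 estimated counts (%) from transcripts of the distal start in each library, with exact 95% binomial intervals that cover counting error only. The Gli2/3 cKO library is at 42.7%, Hand2 cKO 1 at 15.6% and the other 4 libraries at 1.52% or less.

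Runx3, which supports chondrocyte maturation beside Runx2 and is also used in sensory neurons and blood cells, had 17 and 8 counts in WT, 14, 10 and 8 in Hand2 cKO and 0 in the Gli2/3 cKO library. In CPM the WT libraries were at 0.331 and 0.354 and the Hand2 cKO libraries at 0.265, 0.264 and 0.193, all below WT. Set against a floor of 3 counts in the Gli2/3 cKO library, 0.115 CPM, the group mean of Runx3 was 2.98 times the floor in WT and 2.1 times in Hand2 cKO. The smallest ratio of a single library to that floor was 2.885 in WT and 1.68 in Hand2 cKO. Counting error of these low counts is not included. The edgeR adjusted p was 0.714 and 0.672. The 9 sensory neuron markers summed to 30.8 CPM in the Gli2/3 cKO library and 30.9 to 39.9 CPM elsewhere, and the 7 macrophage markers to 14.8 CPM against 20.7 to 26.2 CPM. Isl1 (16.8 CPM) and Tubb3 (7.35 CPM) carried the neuron sum, and of the 8 neuron markers tested 4 were higher in that library than in WT and 6 higher than in Hand2 cKO, among them Pou4f1 at 0.995 CPM against a WT mean of 0.324 CPM. Their part in the Runx3 value was not tested.

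Sp7, the osteoblast factor that acts after Runx2, was at 3.84 and 5.26 CPM in WT, at 3.03, 3.46 and 1.78 CPM in Hand2 cKO and at 1.80 CPM in the Gli2/3 cKO library. All 4 mutant libraries lay below both WT libraries. The log2 difference from WT was -0.72 ± 0.35 in Hand2 cKO (edgeR adjusted p = 0.723) and -1.33 ± 0.51 in Gli2/3 cKO (edgeR adjusted p = 1).

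Maf, a leucine-zipper factor active in chondrocytes, was at 9.90 and 8.62 CPM in WT, at 4.46, 2.93 and 5.63 CPM in Hand2 cKO and at 4.21 CPM in the Gli2/3 cKO library. The mutant libraries were all below WT, with 46.9% of its mean in Hand2 cKO and 45.5% for the Gli2/3 cKO library. The log2 difference from WT was -1.09 ± 0.30 in Hand2 cKO (interval -1.83 to -0.36, edgeR adjusted p = 0.698) and -1.14 ± 0.44 in Gli2/3 cKO (edgeR adjusted p = 1). The mutants differed from each other by -0.05 ± 0.40. Maf was chosen by the study on these samples, so its direction is no independent evidence. The summed macrophage markers above were lowest in the Gli2/3 cKO library, where 6 of the 7 were lower than in WT and 1 was higher. In Hand2 cKO the sums (21.4 to 24.7 CPM) lay within the WT range. The part of these cells in the Maf values was not tested.

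Maf is read as a single-exon transcript with 79.4% of counts and a spliced one with 20.6%. The last 60 coding bases show where they part, with capitals for the bases after the shared codons (GENCODE M21, minus strand of chromosome 8).
Maf spliced: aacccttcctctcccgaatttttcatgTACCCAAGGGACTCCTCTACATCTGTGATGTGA
Maf single-exon: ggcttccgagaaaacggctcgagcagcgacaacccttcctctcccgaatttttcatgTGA

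The share of the single-exon transcript was 82.0% ± 4.05 (SD, n = 2) in WT, 73.7% ± 14.0 (n = 3) in Hand2 cKO and 83.2% in the Gli2/3 cKO library. WT and Hand2 cKO gave an exact two-sided permutation p = 0.6, where the smallest that 10 splits allow is 0.2. Hand2 cKO 2 had the lowest share, 57.5%, and the other Hand2 cKO libraries were at 81.1% and 82.5%.

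Counted as groups that do not overlap in CPM, 2 of the 10 genes were higher in every Hand2 cKO library than in WT (Sox9 and Gdf5; background 15.3%) and 3 were lower (Runx3, Sp7 and Maf; 15.7%). The Gli2/3 cKO library was above both WT libraries for 2 genes (Sox9 and Sox5; 36.6%) and below both for 7 (33.7%). It was below every Hand2 cKO library for 4 (Runx2, Runx3, Nkx3-2 and Gdf5; 27.2%) and above all of them for 0 (28.7%). The median log2 fold change of the 10 was 0.0012 in Hand2 cKO against WT, -1.24 in Gli2/3 cKO against WT and -0.51 between the mutants, where the medians of all genes were -0.00012, 0.0012 and -0.015. Left without Hand2 cKO 2, a count made after seeing the data, 4 genes lay above WT in Hand2 cKO (background 23.6%) and 3 below (22.3%), and 8 lay lower in Gli2/3 cKO than in Hand2 cKO (38.8%).

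In Hand2 cKO 2 the long-transcript genes stood low against the other Hand2 cKO libraries. Acan was at 19.2% of their mean, Maf at 58.0%, Sox5 at 58.3%, Sox6 at 62.1% and Runx2 at 65.0%, and their count-weighted lengths were 5714 to 8261 bases. Sp7 was at 144%, Runx3 at 115% and Gdf5 at 114%, with lengths of 2320 to 3870 bases.

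**Figure D5:**
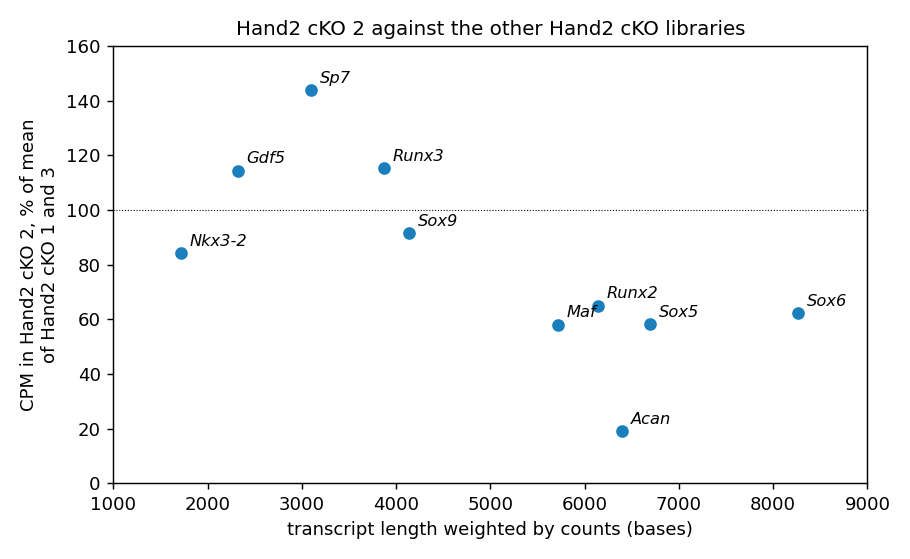
CPM in Hand2 cKO 2 as a percentage of the mean of Hand2 cKO 1 and 3, against count-weighted transcript length in bases, one point per gene. The 5 longest genes lie at or below 65.0%, and the 5 shorter ones at 84.1% or more.

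Genes that work beside these regulators were read from lists, and the main test called 0 of them in any comparison. DESeq2 called 1 of 18 cartilage regulators lower in Hand2 cKO (Sox8, a relative of Sox9) and Foxc2, a forkhead gene of the condensing mesenchyme, lower in Gli2/3 cKO. Foxc2 was at 26.6 and 15.9 CPM in WT, at 35.4, 37.8 and 26.5 CPM in Hand2 cKO and 6.77 CPM in the Gli2/3 cKO library (DESeq2 adjusted p = 0.0169 against WT and 4.52e-06 against Hand2 cKO). Its relative Foxc1 had 22.3 and 9.99 CPM in the WT libraries, against 32.9 to 37.6 CPM in those of Hand2 cKO (edgeR adjusted p = 0.723).

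Of the cartilage matrix list, Col9a2, a chain of collagen IX, was at 29.9 and 28.5 CPM in WT, at 13.1, 14.3 and 12.6 CPM in Hand2 cKO and 9.22 CPM in the Gli2/3 cKO library. Both mutants lay below WT, and DESeq2 called both (adjusted p = 2.07e-06 and 4.02e-07, edgeR adjusted p = 0.138 and 0.281). Of the bone matrix list, Col1a1 was at 39.8 CPM in the Gli2/3 cKO library against 103 and 94.5 CPM in WT (DESeq2 adjusted p = 0.0084). In Hand2 cKO it was at 73.7, 52 and 74.5 CPM, also below both WT libraries. Col1a2 was at 161 CPM in the Gli2/3 cKO library against 311 to 413 CPM in Hand2 cKO (DESeq2 adjusted p = 0.0144). Its WT libraries were at 405 and 289 CPM, and DESeq2 did not call it against WT. Of the bone regulators, 0 of 20 were called by either tool. At an unadjusted edgeR p under 0.05 only 1 of the 20 passed, Bmp2, in the 2 comparisons with the Gli2/3 cKO library. Of all genes, 4.59% passed in either direction against WT (2.96% lower) and 5.48% against Hand2 cKO (2.63% lower). The count of the list was thus near that of all genes. Bmp2 was at 0.651 CPM in the Gli2/3 cKO library, against 1.56 to 2.30 CPM elsewhere.

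Among the joint genes, Gdf6, the closest relative of Gdf5, was at 23.4 and 41.7 CPM in WT, at 12, 13.1 and 13.1 CPM in Hand2 cKO and 33.2 CPM in the Gli2/3 cKO library. Its Hand2 cKO libraries lay below WT and those of Gdf5 above it (Gdf6 log2 -1.36 ± 0.26, DESeq2 adjusted p = 0.00175, edgeR adjusted p = 0.332). Gsc, a homeobox gene of the first arch, was at 41.6 and 30.4 CPM in WT, at 5.35, 5.73 and 3.35 CPM in Hand2 cKO and 14.0 CPM in the Gli2/3 cKO library (Hand2 cKO against WT, DESeq2 adjusted p = 1.89e-16, edgeR adjusted p = 0.0784). Sfrp2, a secreted Wnt modulator, was at 52.5 and 40.4 CPM in WT, at 70.3 to 84.7 CPM in Hand2 cKO and at 35.2 CPM in the Gli2/3 cKO library. DESeq2 called it higher in Hand2 cKO than in WT and lower in Gli2/3 cKO than in Hand2 cKO (adjusted p = 0.00465 for the latter). Osr2, named after its result was seen, was the remaining joint gene that DESeq2 called between the mutants, lower in Gli2/3 cKO.

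Across the 6 libraries, the genes of at least 1 mean log2 CPM whose log2 CPM followed Sox9 most closely were Nmt2, Lipo3 and Ppfibp2 (Pearson r 0.998, 0.991 and 0.990). Those for Runx2 were Col3a1, Erg and Rundc3b (0.993, 0.988 and 0.988), and those for Maf were Plekhb2, Tro and Adamts2 (0.998, 0.997 and 0.994). These are the highest of 12256 genes over 6 points that share depth and the length trend, and are given as a description.

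Promoter sequences from RefSeq (GRCm38.p6, windows of 300 bases around the start) were at hand for 6 of the 10 genes, in 12 windows. Sox6 had the most windows, Runx3 also had multiple, and the other genes had a single window. The Sox6 windows ranged from the start of its main transcript (84.5% of Sox6 counts) to that of a transcript with 0.13%. The Gli motif GACCACCC and its variant GACCTCCC, searched on both strands, were in 0 of these 12 windows and in 0.807% and 1.28% of all 32851 promoters. The Runx2 window was at the distal start, whose transcripts held 0.239% and 1.52% of Runx2 counts in WT. The Sox5 window was at the start of a coding transcript with 2.52% of Sox5 counts. The Nkx3-2 window lay inside its counted transcript, whose annotated start is chr5:41764501. The Acan window ended before the annotated start of its main transcript, chr7:79053483. The main starts of Runx2, Sox5, Nkx3-2 and Acan were thus not in the searched windows. The E-box CANNTG, the class of motif bound by Hand2 with its partners, was in each of the 12 windows except that of Sox5, and in 72.3% of all promoters. In the Nkx3-2 window (chr5:41764171-41764470, minus strand) it began at -246 and 34 from the start given for that window (41764220). In the Runx2 distal window (chr17:44814578-44814877, minus strand) it began at -78 and 36 from the start given there (44814627).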

How the data were processed

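RNA of mandibular prominences at embryonic day 10.5 was sequenced by the authors, and the deposited files hold estimated counts per transcript, made in Strand NGS on mm10. Its version, annotation and strand setting were not given in the sources used here. DESeq2 is named in the submitters' processing notes. The design assumed whole counts; 47.7% to 56.8% of listed values per library were over 0.01 from a whole number, so counts were summed per gene symbol and rounded. edgeR 4.0.16 (R 4.3.3, limma 3.58.1) fitted all 6 libraries with genotype as the only term (TMM, filterByExpr, quasi-likelihood test, 17477 genes, Benjamini-Hochberg adjustment, 3 residual degrees of freedom). DESeq2 1.42.0, other scaling, no filter, a length-trend offset, 2 groups alone and leaving out each library were alternatives. The fits were also run on simulated counts with less spread than these libraries (common biological coefficient of variation 0.289). Changes were placed only in the Hand2 cKO libraries and read in Hand2 cKO against WT. The simulation therefore does not show how the tests perform at the spread of these libraries, or with the single Gli2/3 cKO library. TPM used GENCODE M21 lengths, matched for 103635 of 105129 transcripts. The methods of the study speak of biologic samples, without saying whether a library was 1 embryo or a pool. Genes on the opposite strand overlap exons of Sox5, Runx2, Gdf5 and Maf, and their reads cannot be told apart. Named genes were all 10 regulators and, per list and comparison, the genes called and the 2 with the smallest p. The 10 genes and the lists were chosen with earlier results of these data known. A result of the list of family relatives is not reported here.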

Additional observations from a re-analysis of the deposited data

Results flagged for a closer look

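Gdf5 lay above both WT libraries in every Hand2 cKO library and below both in the Gli2/3 cKO library. The difference between the mutants was -2.08 in log2 (edgeR adjusted p = 0.654, adjusted p 0.066 to 0.961 over the alternatives). It was seen in 3 of 3 Hand2 cKO libraries against 1 Gli2/3 cKO library, and did not pass the correction.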

How the results depend on the processing

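Genes called in Hand2 cKO against WT numbered 2 with edgeR, 181 with DESeq2, 45 without the filter, 63 with the length trend removed and 1 to 39 when a library was left out. In Gli2/3 cKO against WT they numbered 2, then 129, 21, 15 and 0 to 14, and 57 in the fit of the 2 groups alone. In Gli2/3 cKO against Hand2 cKO they numbered 6, then 142, 39, 46 and 2 to 23, and 20 in the fit of the 2 groups alone. Of the 10 regulators DESeq2 called 1 (Nkx3-2, -1.51) in Gli2/3 cKO against WT and 2 (Runx2, -2.01, and Nkx3-2, -1.40) between the mutants, and no other alternative called any. Of the lists, where edgeR called 0, removing the length trend called 1 cartilage matrix and 1 joint gene in Hand2 cKO and 1 cartilage matrix and 1 bone matrix gene in Gli2/3 cKO against WT. DESeq2, added after seeing the data, called 1 cartilage regulator, 1 cartilage matrix, 3 joint and 3 family genes in Hand2 cKO against WT, 1 each of cartilage regulators, cartilage matrix and bone matrix in Gli2/3 cKO against WT, and 1 cartilage regulator, 1 bone matrix, 4 joint and 1 family gene between the mutants. Gdf6 is in both the joint and the family list, and is counted under each in Hand2 cKO against WT and between the mutants. The shares of all genes that DESeq2 called are those given with the 10 regulators above. With the length trend removed the difference between the mutants changed sign for Sox5 (-0.022) and Sox6 (-0.21). Leaving out a library turned Sox5 in Hand2 cKO against WT (-0.020 to 0.32) and between the mutants (-0.068 to 0.28), Sox6 in the 3 comparisons (-0.11 to 0.52, -0.089 to 0.54 and -0.17 to 0.26), and Acan (-0.83 to 0.15) and Maf (-0.26 to 0.18) between the mutants. The other 286 of 299 fold changes of the regulators kept their sign and side of the threshold. The cause of these shifts was not tested. No paired analysis was possible because the labels name no pairs or litters across genotypes. Depth limits Acan and Runx3, with 0 to 46 counts.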
